A study of Gallus gallus with 6 samples.

Results

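The genes described here differed at least 2-fold between replicate 3 and replicate 2 of embryonic chicken lung on both days sampled. None of them moved between the days past a set limit in the same direction in both replicates. They were chosen from read counts of 4 libraries, replicates 2 and 3 at embryonic day 6 (E6) and at embryonic day 5 (E5), scaled to counts per 1000000 of the library total (CPM). A gene was kept if its mean over the 4 libraries was at least 5 CPM and it was outside the 200 highest. Its difference between the replicates, called r, was the log2 of CPM + 1 in replicate 3 over CPM + 1 in replicate 2 on each day. A member had r of at least 1 on both days, or of -1 or less on both days. Genes whose E6 over E5 difference, called d and computed in the same way within a replicate number, reached 0.4 or more in both numbers, or -0.4 or less in both, were left out. Of 17108 gene identifiers, 9596 were kept and 56 were members, of which 45 were higher and 11 lower in replicate 3. Before the limit on d, 0.521% of the kept genes passed r in the higher and 0.125% in the lower direction. In 25.2% of them both libraries of replicate 3 lay above both of replicate 2, and in 25.2% below, and all 45 and all 11 members did so, which their choice largely fixes.

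Both stages were sampled from wildtype embryos of the White Leghorn breed with no treatment named, as 3 libraries at E6 and 3 at E5. RNA for a library came from 6 lungs pooled together, so it holds epithelium, mesenchyme and every other cell of the organ, and more cells of a type cannot be told apart from more RNA per cell. The series describes the libraries of a stage as biological replicates, and the labels do not say what a replicate number stands for. What libraries of the same number share was not tested. E6 and E5 lungs came from different embryos, since a lung is removed at one age, so the E6 pair and the E5 pair of libraries share no tissue.

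The avian lung starts as a pair of buds from the ventral foregut. Around these days the epithelial airway tubes lengthen and send side branches into the surrounding mesenchyme, while matrix between the tissues is laid down and broken down. A pool of lungs averages over the embryos in it.

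The files give identifiers without gene names, and the chicken reference table used here held an Ensembl identifier for 0 of its 25635 genes. The members are therefore described by identifier, level and rank, with no gene role, genome position, length or sequence. Markers of lung and of other tissues were not analysed here for the same reason. CPM is not divided by gene length, so levels are compared between libraries for a gene and not between genes. The E6 libraries held 10059547 counts in replicate 3 and 10449717 in replicate 2, and the E5 libraries held 10855572 in replicate 3 and 12993894 in replicate 2. Replicate 1 held 509443 counts at E6 and 585803 at E5 and stands apart: over the kept genes its log2 CPM correlated with the other libraries at 0.30 to 0.39, where those 4 correlated among themselves at 0.97 to 0.99. The replicate 1 libraries correlated with each other at 0.85. Replicate 1 is therefore described separately at the end.

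The gene with the widest difference was ENSGALG00000028273.1. It stood at 285.8 CPM (2875 counts) and 304 CPM (3300 counts) in replicate 3 of E6 and E5, against 11.5 CPM (120 counts) and 13.5 CPM (176 counts) in replicate 2 of E6 and E5. Both libraries of replicate 3 lay far above both of replicate 2, and on neither side did the 2 days differ by much. The mean was 295 ± 12.9 CPM in replicate 3 and 12.5 ± 1.46 CPM in replicate 2 (SD, n = 2 libraries each). Each SD is over an E6 and an E5 library, so it mixes stage with spread between libraries and is not one of replicates of a condition. The fold between replicates was 24.9 at E6 (95% exact interval from the counts 20.7 to 30.1) and 22.4 at E5 (19.3 to 26.3). These intervals cover counting error only. Within a number the stages were close, with d of -0.09 in replicate 3 and -0.22 in replicate 2.

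ENSGALG00000006520.4 came next among the genes higher in replicate 3. It stood at 135 and 123 CPM in replicate 3 of E6 and E5, against 13.2 and 17.7 CPM in replicate 2 of E6 and E5. The groups did not overlap, but replicate 2 was lower at E6 than at E5, with d of -0.40, where replicate 3 had d of 0.13. The fold between replicates was 10.3 at E6 (95% exact interval 8.6 to 12.3) and 6.97 at E5 (6.05 to 8.05). The intervals of the 2 days did not meet, but they cover counting error only, and a change between days was not tested.

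Among the genes lower in replicate 3, ENSGALG00000008893.4 had the widest difference. It stood at 3.58 CPM (36 counts) and 3.59 CPM (39 counts) in replicate 3 of E6 and E5, against 48.2 CPM (504 counts) and 51.3 CPM (666 counts) in replicate 2 of E6 and E5. The level in each number was nearly the same on both days, and r was -3.43 at E6 and -3.51 at E5. The level in replicate 2 was 13.5 times that in replicate 3 at E6 (95% exact interval 9.6 to 19.5) and 14.3 times at E5 (10.3 to 20.2). ENSGALG00000012911.4 was the other gene lower by more than 4-fold on both days. It stood at 2.09 CPM (21 counts) and 1.75 CPM (19 counts) in replicate 3 of E6 and E5, against 13.8 CPM (144 counts) and 12.1 CPM (157 counts) in replicate 2 of E6 and E5. It was higher at E6 than at E5 in both numbers, with d of 0.17 in replicate 3 and 0.18 in replicate 2, short of 0.4.

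**Figure D1:**
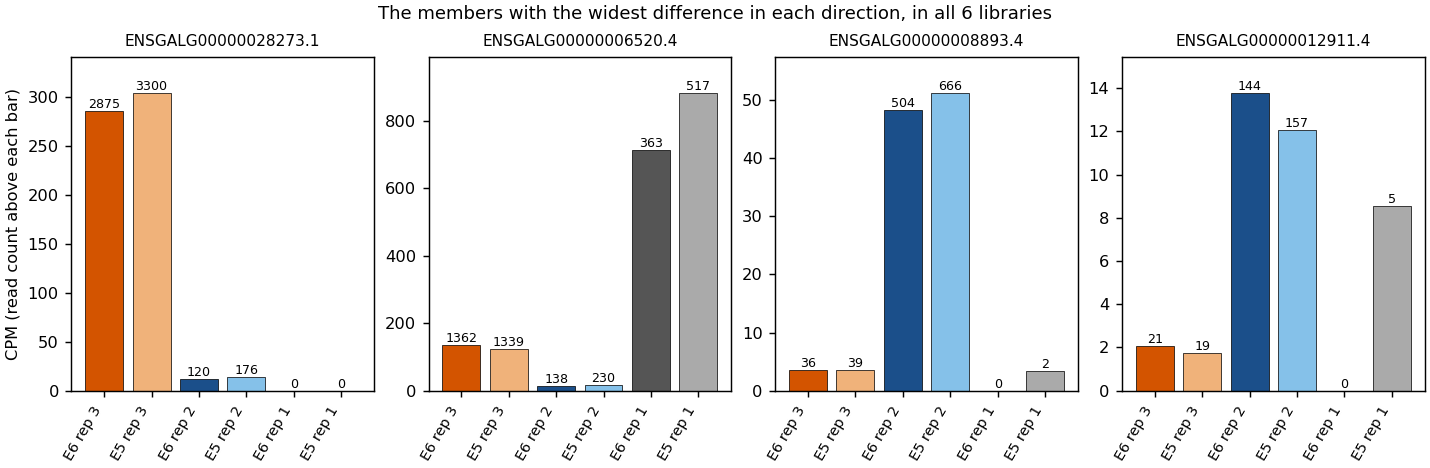
CPM of the 4 named identifiers in each of the 6 libraries as bars from 0, with read counts above the bars and a separate scale for each gene. ENSGALG00000028273.1 is at 285.8 and 304 CPM in replicate 3 and at 0 counts in both replicate 1 libraries, while ENSGALG00000006520.4 is highest in replicate 1, at 713 CPM at E6 and 883 CPM at E5.

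The remaining members differed less. Of the 45 genes higher in replicate 3, 4 had r of at least 2 on both days, 9 had a smaller value between 1.5 and 2, and 32 had one between 1 and 1.5. Of the 11 lower genes, 2 passed -2 on both days, 0 lay between -1.5 and -2, and 9 lay between -1 and -1.5. The 4 widest of the higher genes had a median of 85.6 CPM at E6 and 80.9 CPM at E5 in replicate 3, against 8.37 CPM at E6 and 10.5 CPM at E5 in replicate 2. The third of them stood at 35.8 and 38.4 CPM in replicate 3 of E6 and E5, against 5.26 and 7.39 CPM in replicate 2. The fourth was read little, at 12.2 and 10.8 CPM in replicate 3, against 1.44 and 1.62 CPM in replicate 2.

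The 9 higher genes of the middle range had a median of 19.98 CPM at E6 and 19.5 CPM at E5 in replicate 3, against 5.36 CPM at E6 and 5.46 CPM at E5 in replicate 2. The gene among these whose r changed least between days, eighth in the order, stood at 162 and 168 CPM in replicate 3 of E6 and E5, against 45.7 and 47.6 CPM in replicate 2, with r of 1.80 on both days. The 32 higher genes nearest the threshold had a median of 33.7 CPM at E6 and 30.8 CPM at E5 in replicate 3, against 11.3 CPM at E6 and 12.2 CPM at E5 in replicate 2. The last of them in the order stood at 556 and 618 CPM in replicate 3 of E6 and E5, against 248 and 304 CPM in replicate 2. The 9 lower genes nearest the threshold had a median of 16.2 CPM at E6 and 17.0 CPM at E5 in replicate 3, against 36.7 CPM at E6 and 42.7 CPM at E5 in replicate 2.

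**Figure D2:**
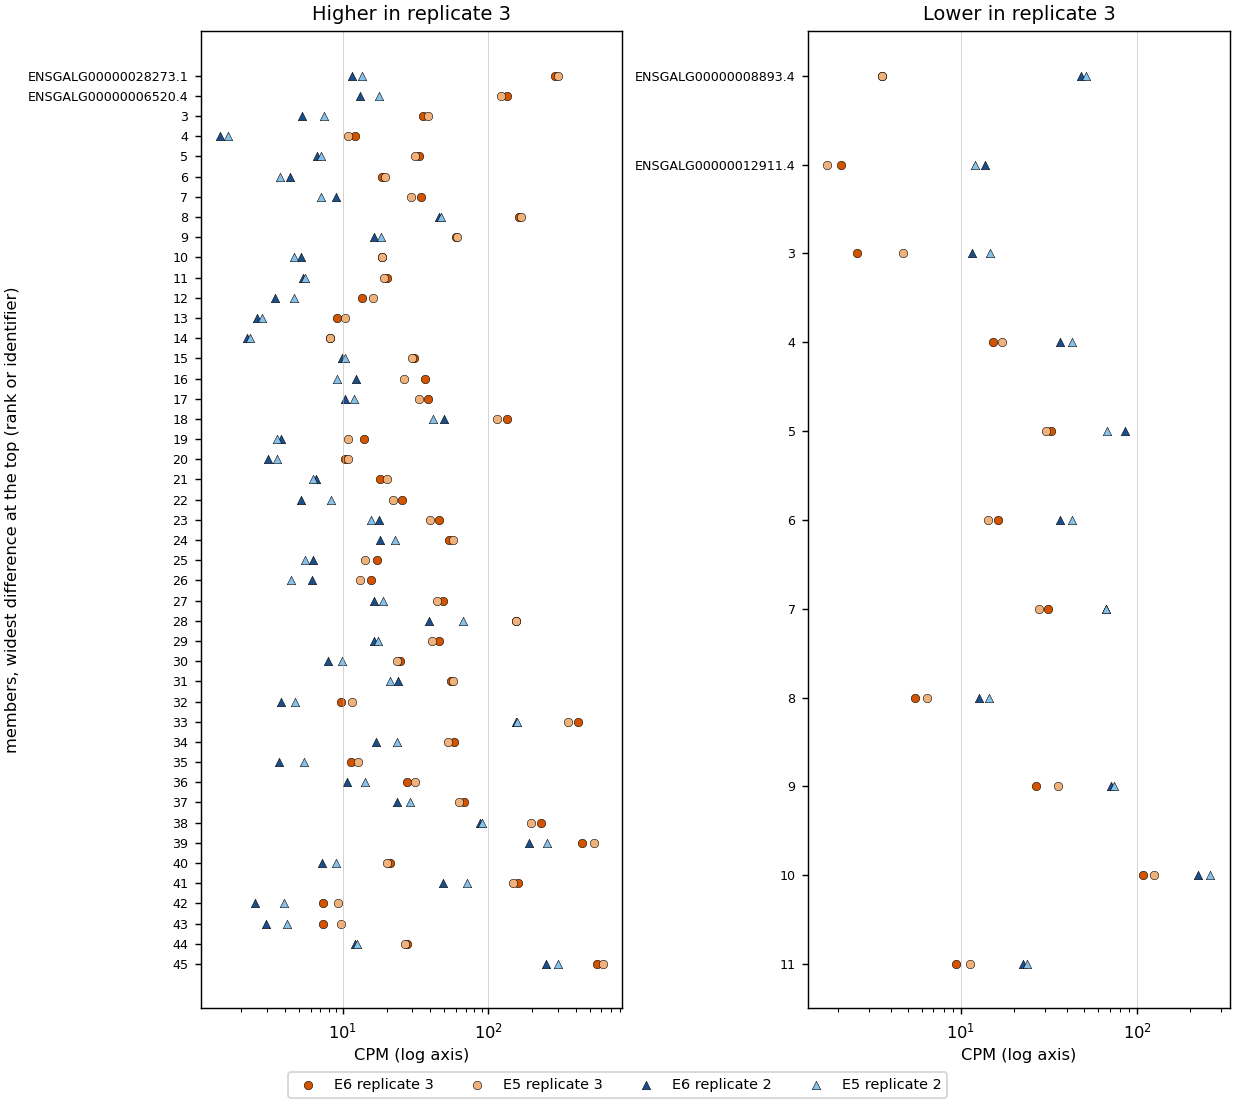
CPM on a log axis of all 56 members in the 4 libraries of replicates 3 and 2, with the 45 genes higher in replicate 3 on the left and the 11 lower on the right, ordered by the smaller size of r. Circles (replicate 3) and triangles (replicate 2) are apart in every row, which the choice of members largely fixes. Between the E6 and E5 symbols, the size of d was under 0.4 in both numbers for 44 members, against 87.7% of the kept genes.

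At the threshold the members ran on into the genes outside it. The 2 higher members nearest to it had r of 1.16 at E6 and 1.02 at E5, and of 1.14 at E6 and 1.04 at E5. The 2 genes just outside had 0.99 at E6 and 1.27 at E5, and 1.22 at E6 and 0.98 at E5. The first of these also had d of -0.89 in replicate 3 and -0.61 in replicate 2, past the limit on d. Of the lower members, the nearest had -1.19 at E6 and -1.003 at E5, and -1.02 at E6 and -1.05 at E5, while the nearest outside had -0.99 at E6 and -1.10 at E5, and -1.10 at E6 and -0.98 at E5. Another 6 genes passed r and were left out for d, 5 of them lower at E6 than at E5 in both numbers and 1 higher. One more would have been a member but was among the 200 highest, at 998 and 878 CPM in replicate 3 of E6 and E5, against 349 and 328 CPM in replicate 2.

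Depth set the counting error of each difference, which leaves out spread between libraries beyond sampling noise. The lowest counts of a member were 21 at E6 and 19 at E5 in replicate 3, and 15 at E6 and 21 at E5 in replicate 2. For 44 of the 56 members at E6 and 38 at E5, the 95% exact interval of the fold from the counts lay wholly past 2-fold, and for 33 it did so on both days. For the rest, a difference smaller than 2-fold on at least 1 day was within counting error. The members were chosen for passing 2-fold in these same counts, so these numbers are a description and no test of the threshold. They were not computed for the other kept genes. Of the 56 members, 14 had a mean under 10 CPM, and of the 9596 kept genes 1147 did (11.95%).

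In the model of all genes, an edgeR quasi-likelihood fit of the 4 libraries with stage as a block, 11.2% of 11784 genes were called between replicate 3 and replicate 2 at a Benjamini-Hochberg adjusted p under 0.05. The share was 6.97% for genes higher and 4.27% for genes lower in replicate 3. All 45 higher and all 11 lower members were among them. The members were chosen on this contrast, so nothing is read from that count. The fitted log2 fold of replicate 3 over replicate 2 was 1.09 to 4.55 for the 45 genes, with a median of 1.47, and -3.79 to -1.05 for the 11, with a median of -1.28, where the median over all kept genes was -0.01. For the named genes it was 4.55 (SE 0.12) for ENSGALG00000028273.1, 3.06 (SE 0.12) for ENSGALG00000006520.4, -3.79 (SE 0.18) for ENSGALG00000008893.4 and -2.75 (SE 0.28) for ENSGALG00000012911.4. DESeq2 called 52 of the 56, of 320 genes called in all.

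The differences of the 2 days come from separate libraries, and a list chosen on either day is read here on the other. These are the values of r that the rule used, and the limit on mean CPM uses both days. The counts below are therefore a description and give no support to the members. Of the 131 kept genes with r of at least 1 at E6, 118 were also above 0 at E5, 50 passed 1 there (38.2%), and their median r at E5 was 0.83. At E5, 65 genes passed 1, of which 63 were above 0 at E6 and 50 passed 1 (76.9%), with a median r at E6 of 1.42. The 50 genes that passed 1 on both days include all 45 higher members. Over all kept genes, r was above 0 for 49.98% at E6 and 49.97% at E5. Of the 38 with r of -1 or less at E6, 33 were below 0 at E5 and 12 passed -1 (31.6%), with a median of -0.70. Of the 36 at E5, 26 were below 0 at E6 and 12 passed -1 (33.3%), with a median of -0.65. Over the 9596 kept genes, r at E6 and r at E5 were correlated (Pearson 0.57, Spearman 0.46). Genes are not independent of each other, so these values describe the libraries.

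**Figure D3:**
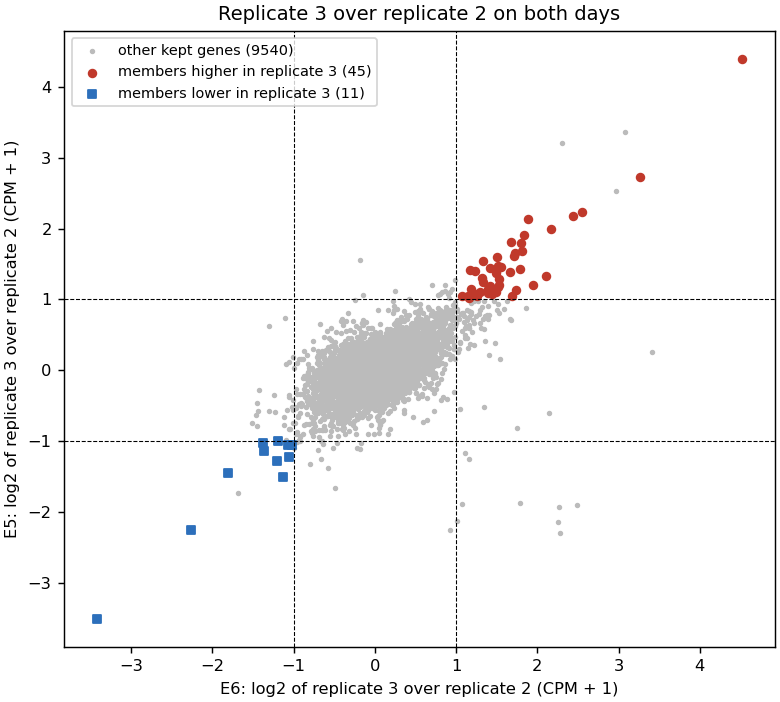
Log2 of replicate 3 over replicate 2 (CPM + 1) at E6 on the horizontal and at E5 on the vertical axis for the 9596 kept genes, with the 2-fold thresholds as dashed lines. The 45 higher members reach 4.52 at E6 and 4.39 at E5, and the 11 lower members reach -3.43 and -3.51. Grey points inside the upper right and lower left corners are the genes left out for d. Those inside the lower right corner are 9 kept genes that passed 2-fold on both days in opposite directions.

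The values of r at E6 and E5 were within 0.25 of each other for 38 of the 56 members, near the 67.3% of all kept genes. They were more than 0.5 apart for 5 members, all of them higher in replicate 3, and for 7.51% of the kept genes. Of the 45 higher genes, 37 had the larger r at E6, with medians of 1.51 at E6 and 1.38 at E5. Of the 11 lower genes, 6 had the larger size at E6. Among all kept genes the size of r was larger at E6 for 60.02%. The SD over these genes of r with its sign was 0.36 at E6 and 0.30 at E5. The widest gap between days was in the 22nd of the higher genes, which stood at 25.4 and 22.1 CPM in replicate 3 of E6 and E5, against 5.17 and 8.23 CPM in replicate 2, with r of 2.10 at E6 and 1.32 at E5. With 1 library per day and number, a change of r between days was not tested.

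The replicate number accounted for 89.0% to 99.97% of each member's sum of squares over the 4 libraries (log2 of CPM + 1), with a median of 97.8%, and stage for at most 10.6%. Over the kept genes the medians were 44.7% for number and 18.2% for stage. The rule fixes a high share for members, so these are descriptions.

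Between stages, 44 of the 56 members had a size of d under 0.4 in both numbers, against 87.7% of the kept genes. The median size of d was 0.16 for members and 0.11 for kept genes in replicate 3, and 0.20 for members and 0.13 for kept genes in replicate 2. The sign of d differed between the numbers for 22 of the 56 members (39.3%) and for 46.9% of the kept genes. A size of d of 1 or more, in either number, was found in 0 members and in 0.552% of the kept genes, and the rule itself limits d. Over the kept genes, d was below 0 for 53.37% in replicate 3 and for 54.45% in replicate 2. Among the 45 higher genes, d was below 0 for 19 in replicate 3 and for 34 in replicate 2, with medians of 0.04 and -0.15. In replicate 2, 8 of these 45 had d of -0.4 or less (17.8%), against 4.45% of the kept genes. In replicate 3 there were 0, against 3.54% of the kept genes. Each d shares its libraries with r: a low E6 library of replicate 2 gives both a lower d in replicate 2 and a larger r at E6. The widest d belonged to the 28th higher gene, at 155 CPM in both E6 and E5 of replicate 3, and at 39.4 CPM in E6 and 66.8 CPM in E5 of replicate 2, where d was -0.75. Among the 11 lower genes, d was below 0 for 7 in replicate 3 and 8 in replicate 2, and the widest was -0.67 in replicate 3.

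**Figure D4:**
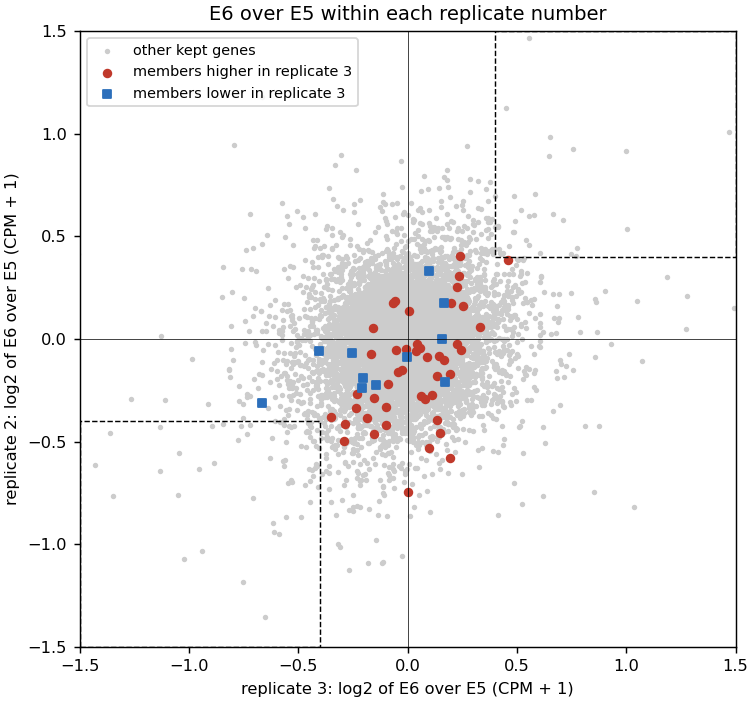
Log2 of E6 over E5 (CPM + 1) within replicate 3 on the horizontal and within replicate 2 on the vertical axis, with members in colour and 20 other kept genes lying outside the axes. Dashed boxes mark where both values pass 0.4 in size, which members cannot enter, and more of the 45 higher genes lie below 0 in replicate 2 (34) than in replicate 3 (19). Of all kept genes, 54.45% lie below 0 in replicate 2 and 53.37% in replicate 3.

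The comparison of E6 with E5 was the study's own. In edgeR without a block, 0 of 11784 genes were called (0.0%), with 303 at an unadjusted p under 0.05. Of the 56 members, 0 were called or had an unadjusted p under 0.05. The gap between replicates for which the members were chosen counts as residual spread in that fit, so this 0 is not a finding. DESeq2 called 4 genes and limma-voom 0, none of them members. With the replicate number as a block, edgeR called 152 genes (1.29%), 0.636% higher and 0.653% lower at E6, and 1 of the 56 members, which was lower. That member, 39th of the higher genes and chosen here after its value was seen, stood at 441 CPM in E6 and 538 CPM in E5 of replicate 3, and at 190 CPM in E6 and 253 CPM in E5 of replicate 2. Its log2 fold of E6 over E5 was -0.33 (SE 0.087, edgeR adjusted p = 0.016). It was not called with all 6 libraries and the block, where the log2 fold was -0.34 (SE 0.12, edgeR adjusted p = 0.39). Within numbers, d was -0.29 in replicate 3 and -0.41 in replicate 2. The rule limits this contrast, so a low count of calls among members is not a finding.

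Leaving out 1 library without a block sets unequal numbers of replicates 3 and 2 against each other, so the wide gap between replicates for which the members were chosen fixes how their stage fold then moves, and those values are a description. ENSGALG00000028273.1 had a log2 fold of E6 over E5 of -0.08 from the 4 libraries without a block. Without E6 replicate 3 it was -3.76 and without E5 replicate 3 it was 3.47, with edgeR adjusted p of at least 0.92. For ENSGALG00000006520.4 the same fold was 0.10, against -2.38 without E6 replicate 3 and 2.08 without E5 replicate 3. ENSGALG00000008893.4 had -0.07, against -2.93 without E6 replicate 2 and 2.87 without E5 replicate 2. ENSGALG00000012911.4 had 0.20, against -1.73 without E6 replicate 2 and 2.19 without E5 replicate 2. With the replicate block the 4 folds were -0.12 (SE 0.11), -0.04 (SE 0.12), -0.05 (SE 0.16) and 0.22 (SE 0.26) in the order given.

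The replicate 1 libraries were not used in choosing the members. A count of 0 there allows up to 3 counts, or 5.89 CPM at E6 and 5.12 CPM at E5. Of the 56 members, 14 had no count in either library, and of the 9596 kept genes 1270 had none (13.2%). By listed CPM, both replicate 1 libraries lay below all 4 others for 46 of the 56 members and for 86.1% of the kept genes, and above all 4 for 1 member and for 8.11% of the kept genes. The 45 higher genes summed to 893 CPM at E6 and 982 CPM at E5 in replicate 1, and ENSGALG00000006520.4 made up most of both sums, since the rest held 181 and 99.01 CPM. In comparison the 45 summed to 3657 CPM at E6 and 3666 CPM at E5 in replicate 3, and to 1200 CPM at E6 and 1405 CPM at E5 in replicate 2. The 11 lower genes summed to 21.6 CPM at E6 and 46.1 CPM at E5 in replicate 1, to 253 and 278 CPM in replicate 3, and to 626 and 670 CPM in replicate 2.

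**Figure D5:**
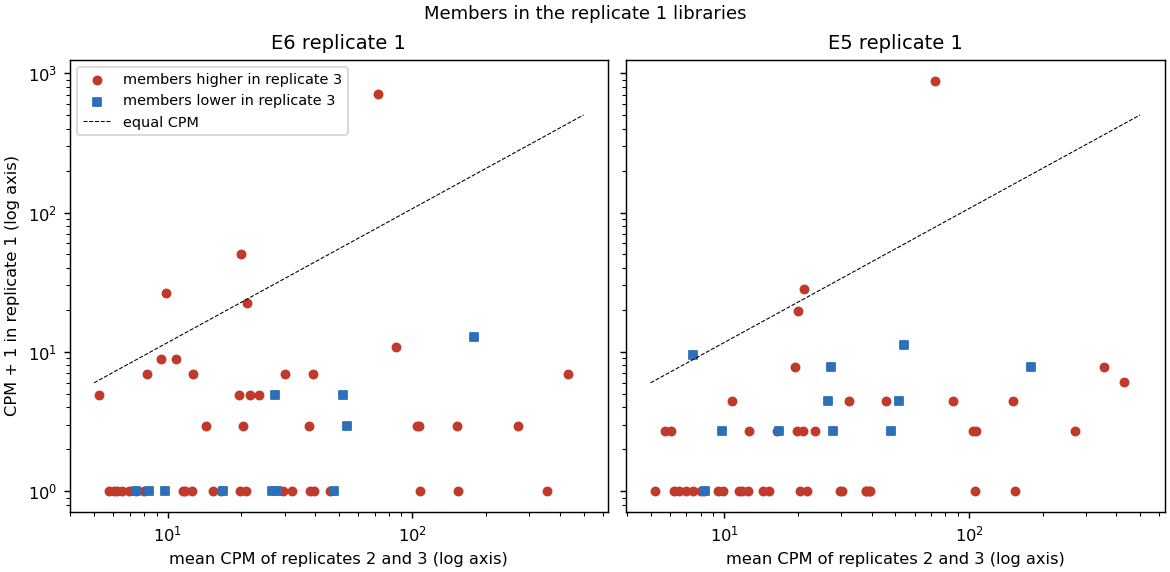
CPM + 1 of each member in the replicate 1 library of E6 (left) and E5 (right) against its mean CPM over replicates 2 and 3, both on log axes, with a dashed line of equal CPM. Most members lie below the line, and ENSGALG00000006520.4 is far above it on both days, at 713 CPM at E6 and 883 CPM at E5.

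By gene, ENSGALG00000028273.1 had 0 counts in both replicate 1 libraries, and the limits of 5.89 CPM at E6 and 5.12 CPM at E5 lie below its level in replicate 2 as well as in replicate 3. ENSGALG00000006520.4 had 363 counts at E6 and 517 at E5, the most of any member. ENSGALG00000008893.4 had 0 counts at E6 and 2 at E5 (3.41 CPM), below its level in replicate 2 on both days. ENSGALG00000012911.4 had 0 counts at E6, where the limit of 5.89 CPM is below replicate 2. At E5 it had 5 counts (8.54 CPM), by listed CPM between replicates 3 and 2, and no counting interval was computed there. More than 3 counts in both replicate 1 libraries were found in 4 members. The median over all kept genes in replicate 1 was 3.93 CPM at E6 and 5.12 CPM at E5, not above the limits that 3 counts set. The low number is therefore not read as a trait of the members.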

How the data were processed

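For every library the authors deposited raw read counts by versioned Ensembl chicken gene identifier, without normalization. Per the submitters' processing notes the tools were Bowtie 1.1.1, cutadapt 1.6, TopHat 0.9, HTSeq, R 3.2.1 and DESeq2 (listed as 2.1.8.3 and 1.8.2), and the builds galGal4 and mm10, without roles. How strand and multiply mapped reads were handled, and the annotation release, is not given in the sources used here. Overlapping or near-identical genes are therefore uncertain. Libraries were made with the PrepX kit of WaferGen, per the labels.

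CPM is the count over the library total, per 1000000. Fits used edgeR 4.0.16 in R 4.3.3 (quasi-likelihood, robust, TMM, filterByExpr, Benjamini-Hochberg threshold 0.05) on replicates 2 and 3. DESeq2 1.42.0 and limma 3.58.1 (voom) were alternatives. The edgeR fits were also run on simulated counts. For E6 over E5 those counts held no gap between replicates 3 and 2, so they do not bear on members there. SE is the size of the log2 fold over the square root of F. Intervals of folds are 95% Clopper-Pearson intervals of the counts, made with scipy 1.17.1. They cover counting error only, since the reads carry no molecular identifiers.

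The members and lists were chosen with earlier results of these data known. The lists held symbols, which matched 0 identifiers, and were not used. The rule for names then gave the 2 identifiers per direction with the largest smaller size of r, with the rest by rank. No pair of libraries agreed within sampling noise (chi-square per degree of freedom at least 5.17). Labels name biological replicates but no shared day or batch for a number. Deviations from the stage mean correlated across stages at 0.79, 0.77 and 0.78 for numbers 1, 2 and 3. The stage means used here include replicate 1, which stands apart, so these correlations do not show what libraries of a number share. Libraries of numbers 2 and 3 with different numbers gave 0.76 and 0.72, and replicates 2 and 3 alone gave 0.46 within a number. The main E6 over E5 fit did not pair libraries by number, and the number was a block only in alternative fits.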

Additional observations from a re-analysis of the deposited data

Results flagged for a closer look

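ENSGALG00000006520.4 had a signal in the replicate 1 libraries, which the comparisons of replicates 2 and 3 do not use. It stood at 712.5 CPM (363 counts) at E6 and 883 CPM (517 counts) at E5 in replicate 1, above the 135 and 123 CPM of replicate 3 and the 13.2 and 17.7 CPM of replicate 2 of E6 and E5. Among the kept genes, 778 (8.11%) had both replicate 1 libraries above all 4 others. The part of that general difference of replicate 1 in this gene's level was not tested.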

How the results depend on the processing

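The number of members was 56, and stayed between 42 and 72 with TMM library sizes, pseudocounts of 0.5 and 2 CPM, minimum means of 2 and 10 CPM, the 200 highest genes kept, and limits on d of 0.3, 0.6 or none. It was 109 at an r threshold of 0.8 and 15 at 1.5. With r on 1 day only and no limit on d, it was 169 for E6 and 101 for E5. Those settings are wider or narrower by construction. With TMM library sizes 55 of the 56 were members again. Between replicate 3 and replicate 2, 1324 genes were called, against 1084 to 1316 with the other normalization, no filter and limma-voom, 320 in DESeq2 and 706 with no stage block. Leaving out 1 library, with the stage block dropped so that residual spread was left, gave 595 to 929 genes, of which 705 came without E5 replicate 3, 595 without E6 replicate 2 and 610 without E6 replicate 3. The members called stayed at 52 to 56 in all of these. Between E6 and E5, 0 genes were called, against 1 with no filter, 4 in DESeq2 and 0 to 1 without single libraries, with the 1 call without E6 replicate 2. The replicate block gave 152 genes with replicates 2 and 3 and 28 with all 6 libraries, with 1 member called from the 4 libraries and 0 from all 6. For the tests, the cause was not tested. Members and named genes were chosen on the contrast of replicates 3 and 2, so nothing is read from their calls or directions in it. The log2 fold of replicate 3 over replicate 2 of the 4 named genes kept its direction in 36 of 36 alternatives. Their E6 over E5 fold was called in none of 44, and 31 of these had the direction of the fit of 4 libraries without a block. The others came from leaving out 1 library, for ENSGALG00000006520.4 also from limma-voom, the block and the 6 libraries, and for ENSGALG00000012911.4 also from the 6 libraries without a block. Low counts limit replicate 1 most: 1 read is 1.96 CPM at E6 and 1.71 CPM at E5.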

Other observations

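Beside the members, 9 kept genes passed 2-fold between the replicates on both days in opposite directions, all 9 higher in replicate 3 at E6 and lower in replicate 3 at E5. Their median was 18.6 CPM at E6 and 1.93 CPM at E5 in replicate 3, against 5.74 CPM at E6 and 7.70 CPM at E5 in replicate 2. The highest of the 4 libraries by median was therefore E6 replicate 3 and the lowest E5 replicate 3. The choice of these genes fixes the order of replicates 3 and 2 on each day, and they were chosen after their values were seen.

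With the minimum mean lowered to 2 CPM, 16 further genes met the rule, 14 higher and 2 lower in replicate 3. Their smaller size of r lay between 1.02 and 1.99, so none reached the size of 2 that r had in 6 members on both days.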
